A study of Mus musculus with 30 samples.

Results

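Adult mouse brain endothelial cells (ECs) were compared with the remaining cells of the dissociated brain by RNA-seq. The comparison used 2 libraries of GFP-positive cells and 2 libraries of GFP-negative cells, which are 4 of the 30 samples of the series and were chosen by their labels alone. All 4 libraries came from adult male Tie2-GFP mice, which the study's methods describe as homozygous for a transgene that expresses GFP under the promoter of Tie2 (Tek). The study states that its adult brain EC data combine new cerebrum data with cerebellum data published earlier. It does not say how these were divided over the replicates. Brains were dissociated with papain, myelin was removed by centrifugation through BSA, and cells that excluded propidium iodide were sorted by FACS directly into lysis buffer. The GFP-positive cells are labelled as vascular ECs and the GFP-negative cells as non-endothelial. The sort therefore rests on the activity of 1 endothelial promoter, and the GFP-negative group is a mixture of every viable cell that survived dissociation without that signal. The rest of the series holds cultured brain ECs and chromatin accessibility data, of which only the ATAC-seq peaks of acutely isolated ECs are used here. Whether a replicate was 1 mouse or a pool of mice was not given in the sources used here, so the p-values measure only the spread between these libraries, which may in part be technical.

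CNS ECs line the blood vessels of the brain and form the blood-brain barrier (BBB). They seal the gaps between neighbouring cells with tight junctions, carry nutrients such as glucose and amino acids inward with membrane transporters, and pump lipophilic compounds back into the blood with ATP-driven efflux pumps. Beta-catenin signaling, driven by Wnt ligands and Norrin made by neural cells and received by Frizzled receptors on ECs, is known to maintain this state. Pericytes and smooth muscle cells wrap the endothelial tube, and astrocyte end-feet cover its outer surface.

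The promoter sequences below are shown because the marker gene of the sorted cells, an endothelial surface gene, a BBB efflux pump, a pericyte gene and an astrocyte gene are the reference points of the comparison. Each is the stretch of 250 bases before the annotated transcript start, read 5′ to 3′ on the strand of the gene, from RefSeq on GRCm38.p6. Capitals mark matches on either strand to 4 motifs, which are ACAGGAAG for ERG, CTTTGAT for TCF/LEF, CCATTGT for SOX and GGGTGTGG for KLF factors. None of the 4 motifs overlaps another in these stretches. Of the labelled markers, Cldn5 had an entry in the sequence table, while Pecam1 and Cdh5 are named only.
Cldn5, chr16:18776597-18776846, plus strand: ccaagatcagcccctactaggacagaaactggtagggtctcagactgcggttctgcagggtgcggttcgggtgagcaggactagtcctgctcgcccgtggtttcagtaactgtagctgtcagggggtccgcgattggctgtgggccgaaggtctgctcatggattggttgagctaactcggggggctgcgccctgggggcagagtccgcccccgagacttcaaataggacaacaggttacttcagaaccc
Emcn, chr3:137340828-137341077, plus strand: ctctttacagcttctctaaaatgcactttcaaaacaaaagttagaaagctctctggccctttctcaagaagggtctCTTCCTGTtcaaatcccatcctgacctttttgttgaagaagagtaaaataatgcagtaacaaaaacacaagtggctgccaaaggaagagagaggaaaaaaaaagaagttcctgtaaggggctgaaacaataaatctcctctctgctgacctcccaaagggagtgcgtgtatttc
Abcg2, chr6:58640296-58640545, plus strand: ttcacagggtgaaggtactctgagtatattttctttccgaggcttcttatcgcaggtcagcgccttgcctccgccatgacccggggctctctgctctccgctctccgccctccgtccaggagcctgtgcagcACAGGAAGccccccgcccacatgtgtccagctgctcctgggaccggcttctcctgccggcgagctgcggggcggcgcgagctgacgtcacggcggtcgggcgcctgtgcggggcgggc
Rgs5, chr1:169655251-169655500, plus strand: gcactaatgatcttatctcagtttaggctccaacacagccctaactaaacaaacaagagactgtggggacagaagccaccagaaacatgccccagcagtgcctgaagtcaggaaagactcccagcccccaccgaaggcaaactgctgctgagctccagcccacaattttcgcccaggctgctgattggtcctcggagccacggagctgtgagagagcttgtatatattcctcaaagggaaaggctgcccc
Slc1a3, chr15:8710808-8711057, minus strand: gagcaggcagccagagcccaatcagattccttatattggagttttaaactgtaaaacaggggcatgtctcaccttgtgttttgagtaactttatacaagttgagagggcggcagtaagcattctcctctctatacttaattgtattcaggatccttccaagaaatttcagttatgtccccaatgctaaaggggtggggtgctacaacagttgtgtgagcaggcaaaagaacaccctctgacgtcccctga
Emcn held the ERG motif as its reverse complement, starting 174 bases before the start, and Abcg2 held it 118 bases before the start. The starts of Cldn5, Emcn and this Abcg2 transcript lay under an ATAC-seq peak in both libraries of acutely isolated ECs. The table holds 3 starts of Abcg2, and the other 2 had no peak within 1000 bases in both libraries, 1 of them with an ERG match 132 bases before it. The starts of Rgs5 and Slc1a3 had no peak within 1000 bases in both of these libraries. A match to letters is a description of the sequence and not evidence of binding.

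The 4 libraries held between 53421411 and 94686456 estimated counts, of which between 42589831 and 73901448 fell on protein-coding genes. Libraries of the same group resembled each other more than libraries of different groups. Pearson's r of log2(TPM + 1) over 21820 protein-coding genes was 0.932 for the GFP-positive pair, 0.929 for the GFP-negative pair and between 0.761 and 0.809 across the groups, where genes are not independent replicates. Transcripts encoded by the mitochondrial genome took 11.2% and 10.6% of all counts in the GFP-positive libraries and 24.2% and 14.9% in the GFP-negative libraries. Hemoglobin transcripts took 0.329% and 2.13% of counts in the GFP-positive and 0.0806% and 0.779% in the GFP-negative libraries, so that replicate 2 was the higher one in each group.

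The labels were first checked against the expression of cell type markers. All 3 markers of ECs were present in the GFP-positive libraries and near absent from the GFP-negative libraries. Transcript abundance is given as TPM, a unit scaled by transcript length and by the total of the library, which can be compared between genes, and fold changes are log2 ratios of counts, GFP-positive over GFP-negative, with 1 standard error (SE). Cldn5, which encodes the main claudin of brain EC tight junctions, was at 874 and 593 TPM in GFP-positive replicates 1 and 2 and at 1.46 and 0.324 TPM in GFP-negative replicates 1 and 2 (log2 fold change 9.75 ± 1.13, edgeR adjusted p = 0.00314). Pecam1, the EC adhesion molecule CD31, was at 344 and 380 TPM against 8.37 and 1.19 TPM (6.78 ± 0.79, edgeR adjusted p = 0.00315). Cdh5, which encodes VE-cadherin of the adherens junctions, was at 136 and 153 TPM against 1.66 and 0.681 TPM (7.17 ± 0.77, edgeR adjusted p = 0.00258). These genes lie on GRCm38 at chr16:18776847-18778262, chr11:106654217-106750628 and chr8:104101625-104144511 by the GENCODE M21 annotation. The groups did not overlap for any of them, an order that 20.1% of all tested genes shared (37.1% showed the reverse). Tek itself, whose promoter drives the sorted GFP, was at 119 and 217 TPM against 0.325 and 0.45 TPM, a difference that the sort was built to give. Over a list of 12 endothelial markers, all 12 were called higher, with a median log2 fold change of 7.54 where the median of all tested genes was −0.06. A gene was called when its adjusted p was under 0.05, its fold change was over 2 and its TPM was at least 5 in both libraries of the higher group, and 8.3% of the 15102 tested genes were called higher and 7.56% were called lower by that rule. Where a list is given below with no gene called in a direction, DESeq2 also called none and no member had an unadjusted p under 0.05 in that direction, unless stated beside it. The summed TPM of the 12 markers was 5916 and 7537 in the GFP-positive libraries and 119 in each GFP-negative library. Most of the GFP-negative sum came from 1 gene, Esam, at 93.9 and 94.3 TPM.

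The non-endothelial lists divided into those that were depleted from the sorted ECs and those that were not. Astrocyte markers (8 of 8), oligodendrocyte markers (7 of 7) and smooth muscle markers (6 of 6) were all called lower in GFP-positive cells, as were 7 of 10 microglia markers and 5 of 8 neuronal markers. Markers of cerebellar neurons (4 of 5), forebrain neurons (1 of 6), oligodendrocyte precursors (1 of 5), perivascular macrophages (1 of 7), fibroblasts (4 of 6) and ependymal and choroid plexus cells (4 of 6) were called lower in part. Several of the others passed by adjusted p but did not reach 5 TPM in both GFP-negative libraries, as did Olig2, a factor of the oligodendrocyte lineage (7.25 and 4.78 TPM, edgeR adjusted p = 0.00225). None of 6 blood leukocyte markers and none of 4 markers of dividing and immature neural cells was called by edgeR, although 5 and 3 of them had an unadjusted p under 0.05 toward the GFP-negative cells, and DESeq2 called 2 and 0. The count of oligodendrocyte precursor markers called lower was 4 without GFP-negative replicate 2 and 2 without GFP-positive replicate 1, and 1 leukocyte marker was called lower without GFP-positive replicate 2. Slc1a3, the astrocyte glutamate transporter, was at 1.31 and 11.8 TPM in the GFP-positive libraries against 769 and 2104 TPM (−7.52 ± 1.01). Acta2, smooth muscle actin, was at 113 and 93.7 TPM against 1376 and 1828 TPM (−3.78 ± 0.38). Smooth muscle transcripts were lower but still detected in the sorted ECs, with a summed TPM of 252 and 253 for the list against 3764 and 5632. Residual transcripts of other types varied between libraries. The astrocyte list summed to 469 TPM in GFP-positive replicate 1 and 97.2 TPM in replicate 2. By TPM, every member other than Gja1 was higher in replicate 2, as was Aldoc at 1.85 and 8.73 TPM. In counts relative to library size, this order did not hold for Slc1a2, with estimated counts of 1109 and 668. The order of the sums came from Gja1 alone, which encodes connexin 43, at 464 and 65.9 TPM, with estimated counts of 11117 and 4217. Its lower call was lost when transcript length was modeled (−1.04, edgeR adjusted p = 0.521).

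**Figure D1:**
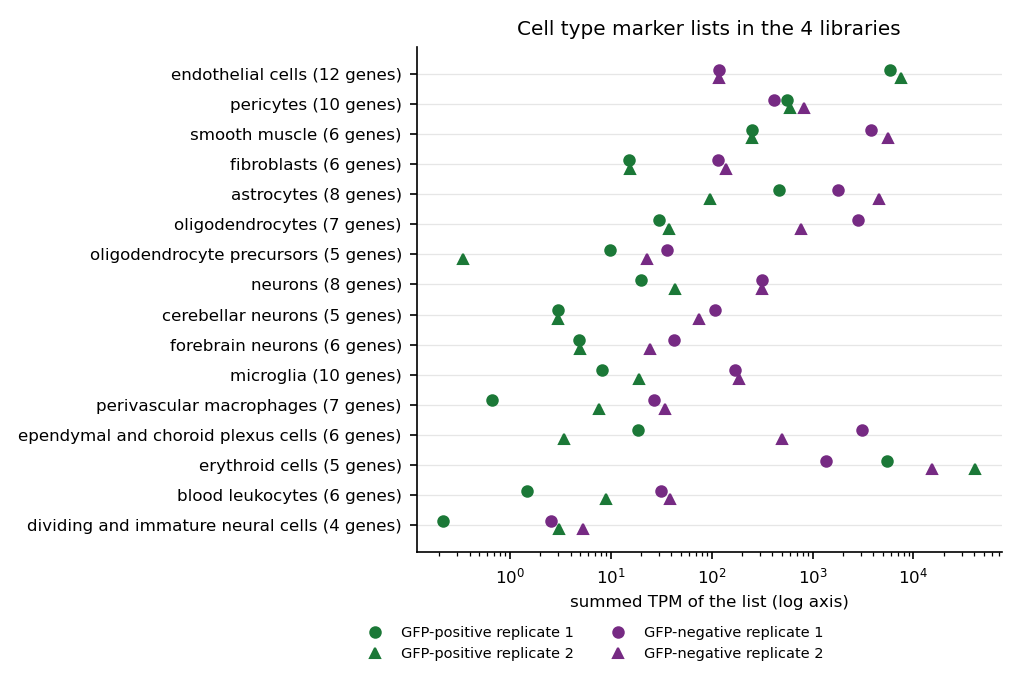
Summed TPM (log axis) of 16 cell type marker lists in each of the 4 libraries, GFP-positive in green and GFP-negative in purple, replicate 1 as circles and replicate 2 as triangles. Endothelial markers lie near 5916 to 7537 TPM in the GFP-positive libraries against 119 TPM, pericyte markers overlap between the groups, and erythroid markers are higher in replicate 2 of each group.

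Pericyte markers did not follow the other mural cells. None of the 10 pericyte markers was called higher, 2 were called lower and 8 were not called, and the list's median log2 fold change was 0.15. Their summed TPM was 562 and 598 in the GFP-positive libraries against 415 and 817 in the GFP-negative libraries, so the groups overlapped. Rgs5, a regulator of G-protein signaling that is abundant in pericytes, was at 211 and 322 TPM against 195 and 391 TPM (0.38 ± 0.35, edgeR adjusted p = 0.464). Vtn, which encodes vitronectin, was at 279 and 148 TPM against 112 and 213 TPM (0.78 ± 0.36, edgeR adjusted p = 0.159). Kcnj8 and Abcc9, which encode the subunits of a potassium channel of pericytes, were at 11.4 and 6.98 TPM against 2.59 and 8.15 TPM and at 11.2 and 11.5 TPM against 6.35 and 15.6 TPM. The members called lower were Cspg4, which encodes the proteoglycan NG2 (3.45 and 4.5 TPM against 17.2 and 27 TPM, −2.03 ± 0.41), and Notch3 (8.33 and 8.86 TPM against 29.9 and 43.3 TPM, −1.84 ± 0.35), both of which smooth muscle cells also express. Both calls were lost when all 14 RNA-seq libraries were fitted together (edgeR adjusted p = 0.0595 and 0.0767). In the ATAC-seq peaks of acutely isolated ECs, which are separate libraries, 0 of the 10 pericyte genes and 0 of the 6 smooth muscle genes had a peak within 1000 bases of a start in both libraries, while 12 of the 12 endothelial genes had one. In bulk libraries, fewer cells of a type and less RNA per cell cannot be told apart.

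The GFP-negative libraries differed from each other in their mixture. Ttr, the thyroxine carrier of the choroid plexus, was at 2978 TPM in GFP-negative replicate 1 and at 462 TPM in replicate 2, and the oligodendrocyte list summed to 2802 and 761 TPM. The astrocyte list ran the other way, at 1804 and 4568 TPM. Neuronal transcripts were comparatively scarce, with summed TPM of 317 and 319 for the 8 genes of the neuronal list, and Snap25, a protein of the synaptic release machinery, reached 119 and 133 TPM. Microglial genes were near or at 0 in the sorted ECs, where Aif1 was listed at 0 TPM in both libraries, and reached a summed TPM of only 171 and 185 in the GFP-negative libraries. The levels of a list depend on the genes chosen for it and do not give the share of cells. Of 5 erythroid markers, none was called higher and 1 was called lower, but 4 were called higher without GFP-negative replicate 2 and also with the replicate number as a block. Hbb-bs, the major beta-globin, was at 3303 and 26455 TPM in the GFP-positive libraries against 907 and 9223 TPM (1.86 ± 1.08, edgeR adjusted p = 0.254). Hba-a1 and Hba-a2 are near-identical copies whose counts the quantification can exchange, so the single call in that list, Hba-a2 (lower), is uncertain, and it was lost in 3 of 4 fits that left out 1 library (edgeR adjusted p = 0.232 without GFP-negative replicate 1, and 0.0585 and 0.0768 without GFP-positive replicates 1 and 2).

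Across all 15102 tested genes, 1253 genes were called higher and 1142 were called lower. The called lower genes had larger fold changes, with a median log2 fold change of −4.16 against 2.28 for those called higher, and 598 of them differed by more than 16-fold compared with 268 of the genes called higher. The genes called higher were the more abundant, since 291 of them had a mean TPM over 100 in ECs whereas 130 of those called lower passed that level in GFP-negative cells. Together the genes called higher held 12.1% and 14% of all TPM in the GFP-positive libraries against 2.41% and 3.26% in the GFP-negative libraries. All TPM includes noncoding transcripts, and protein-coding genes as a whole held 41.8% and 51.3% of it in the GFP-positive and 45.5% and 47.2% in the GFP-negative libraries. The count of genes called higher fell to 647 without GFP-negative replicate 1 and to 622 without GFP-negative replicate 2, and scaling by library size alone gave 930 called higher and 1420 called lower.

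**Figure D2:**
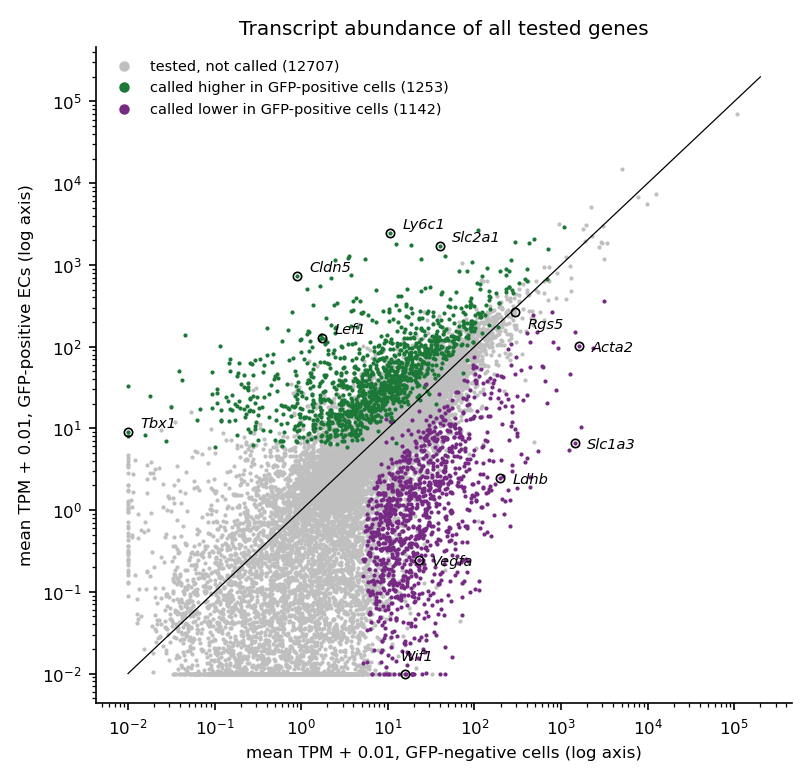
Mean TPM + 0.01 of each tested gene in GFP-positive ECs (vertical, log axis) against GFP-negative cells (horizontal, log axis), with genes called higher in green, called lower in purple and not called in grey, and the line of equal values. Cldn5, Ly6c1 and Slc2a1 lie far above the line, Rgs5 lies on it, and Tbx1 and Wif1 sit at the edges where 1 group had no counts.

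Ranked by abundance, the 10 leading genes called higher in ECs were Tmsb4x, Bsg, Ly6c1, Slc3a2, Selenop, Sparc, Itm2a, Slco1c1, Slc2a1 and Tpt1. Bsg, the chaperone of monocarboxylate transporters, was at 2346 and 2992 TPM against 109 and 111 TPM (4.92 ± 0.41). Ly6c1, a GPI-anchored surface protein of brain ECs, was at 2003 and 2863 TPM against 7.11 and 14.3 TPM (8.05 ± 0.45), and Itm2a, a transmembrane protein, was at 1491 and 2080 TPM against 12.5 and 12.2 TPM (7.2 ± 0.45). Tmsb4x and Tpt1 are also abundant in most cells and showed the smallest differences of the 10, at 1.82 ± 0.34 and 1.51 ± 0.33 on the log2 scale, and both have processed copies elsewhere in the genome with which reads can be shared. Both lost the call without GFP-negative replicate 1 (edgeR adjusted p = 0.0544 and 0.101), and Tpt1 also without GFP-negative replicate 2 (0.0561) and without GFP-positive replicate 1 (0.0548). The most abundant genes called lower included Apoe, Tagln, Ttr, Acta2, Cald1, Slc1a3, Tpm2, Myl9 and Ptgds. Tagln, Acta2, Cald1, Tpm2 and Myl9 encode parts of the contractile apparatus. Apoe, the lipoprotein of astrocytes, was still at 214 and 506 TPM in the sorted ECs against 1763 and 4421 TPM (−2.65 ± 0.42). In the fit of all 14 libraries Apoe and Cald1 were not called (edgeR adjusted p = 0.0796 and 0.0734).

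Ranked by fold change, the genes called lower were led by genes with no counts at all in either EC library. Where a group had no counts, the fold change is given as a lower bound computed against 3 counts over the group. Wif1, a secreted Wnt inhibitor, was at 21.9 and 9.64 TPM in the GFP-negative libraries and was at least 1226-fold lower in ECs. Irx1, a homeodomain factor, was at 17.7 and 20.5 TPM and was at least 1162-fold lower. Klk6, a serine protease of oligodendrocytes, was at 31.9 and 7.54 TPM and was at least 1179-fold lower, and Ntsr2, a neurotensin receptor of astrocytes, was at 6.45 and 31.5 TPM and was at least 875-fold lower. The 10 genes with the largest fold changes toward ECs included Cldn5, given above, and Depp1, a target of FOXO factors, at 13.9 and 36.3 TPM against 0.0162 and 0 TPM (10.96 ± 1.12), Unc45b, a myosin chaperone, at 7.62 and 9.1 TPM against 0.00206 and 0.00975 TPM (10.26 ± 0.89), Foxl2, a forkhead factor, at 9.01 and 5.05 TPM against 0.0299 and 0.00476 TPM (9.04 ± 1.14), and Robo4, an endothelial guidance receptor, at 70.5 and 56 TPM against 0.129 and 0.365 TPM (8.87 ± 0.86). Tbx1, a T-box factor, was at 6 and 11.9 TPM and had no counts in the GFP-negative libraries. Ccl21a belongs to a family of near-identical copies, and its level is uncertain.

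Tight junction genes were unevenly represented. Of 14 tested members, 8 were called higher and 1 was called lower in GFP-positive cells. Besides Cldn5, the tricellular junction genes Lsr (angulin-1) at 125 and 112 TPM against 0.878 and 0.295 TPM (7.52 ± 0.89) and Marveld2 (tricellulin) at 52.2 and 19 TPM against 0.532 and 1.77 TPM (5.29 ± 0.82) had the largest differences. Ocln, which encodes occludin, was at 110 and 218 TPM against 8 and 23.4 TPM (4.58 ± 0.45). F11r, Jam2 and Esam of the JAM family were called higher, but Jam3 was called lower, at 2.31 and 5.35 TPM in ECs against 28.7 and 29.7 TPM (−2.82 ± 0.46). The call of Jam2 was lost without GFP-negative replicate 1 or GFP-positive replicate 1 (edgeR adjusted p = 0.0726 and 0.0642). Among the scaffold proteins, Tjp1 (ZO-1) was at 333 and 442 TPM against 30.9 and 73.9 TPM (2.89 ± 0.33). The other claudins were scarce in ECs. Cldn12 was at 0.928 and 2.94 TPM, Cldn1 was at 0.0645 and 0 TPM, and Cldn3 was listed at 0 TPM in both GFP-positive libraries and at 0.218 and 0.145 TPM in the GFP-negative libraries.

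Solute carriers known for transport across the BBB were higher almost without exception. Of 22 tested carriers, 20 were called higher and none was called lower, with a median log2 fold change of 5.53. Slc2a1, the glucose transporter GLUT1, was at 1588 and 1816 TPM against 31.9 and 47.3 TPM (5.37 ± 0.41, edgeR adjusted p = 0.00163). The lactate and ketone carrier Slc16a1 (MCT1) was at 223 and 172 TPM against 7.29 and 7.43 TPM (5.21 ± 0.53). All 7 amino acid carriers were called higher, and these included both chains of the large neutral amino acid transporter, Slc7a5 at 221 and 289 TPM against 2.67 and 7.19 TPM and Slc3a2 at 2228 and 1916 TPM against 261 and 702 TPM. Slc3a2, which is a partner of several carriers, had the smallest fold change of the 7 at 2.33 ± 0.44.

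Carriers of hormones, vitamins and lipids followed the same direction. Slco1c1, a carrier of thyroxine, was at 1475 and 1993 TPM against 28.4 and 8.27 TPM (6.12 ± 0.93). Slc19a3, the thiamine carrier, was at 40.5 and 38.1 TPM against 0.0637 and 0 TPM (8.85 ± 1.48), which was the largest fold change of the carriers. Mfsd2a, which carries lysophosphatidylcholine with docosahexaenoic acid, was at 312 and 210 TPM against 5.08 and 4.97 TPM (5.23 ± 0.55). Carriers of metals were among the more abundant, with the zinc importer Slc39a10 at 394 and 603 TPM against 7.21 and 7.19 TPM (5.82 ± 0.43) and the iron exporter Slc40a1 (ferroportin) at 189 and 451 TPM against 3.33 and 1.41 TPM (6.28 ± 0.41). Slc5a6, the carrier of biotin and pantothenate, was at 13.5 and 27.6 TPM against 5.01 and 16.5 TPM and did not pass (edgeR adjusted p = 0.05), nor did the nucleoside carrier Slc29a1 at 23 and 4.32 TPM against 14.9 and 3.8 TPM (edgeR adjusted p = 0.367).

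**Figure D3:**
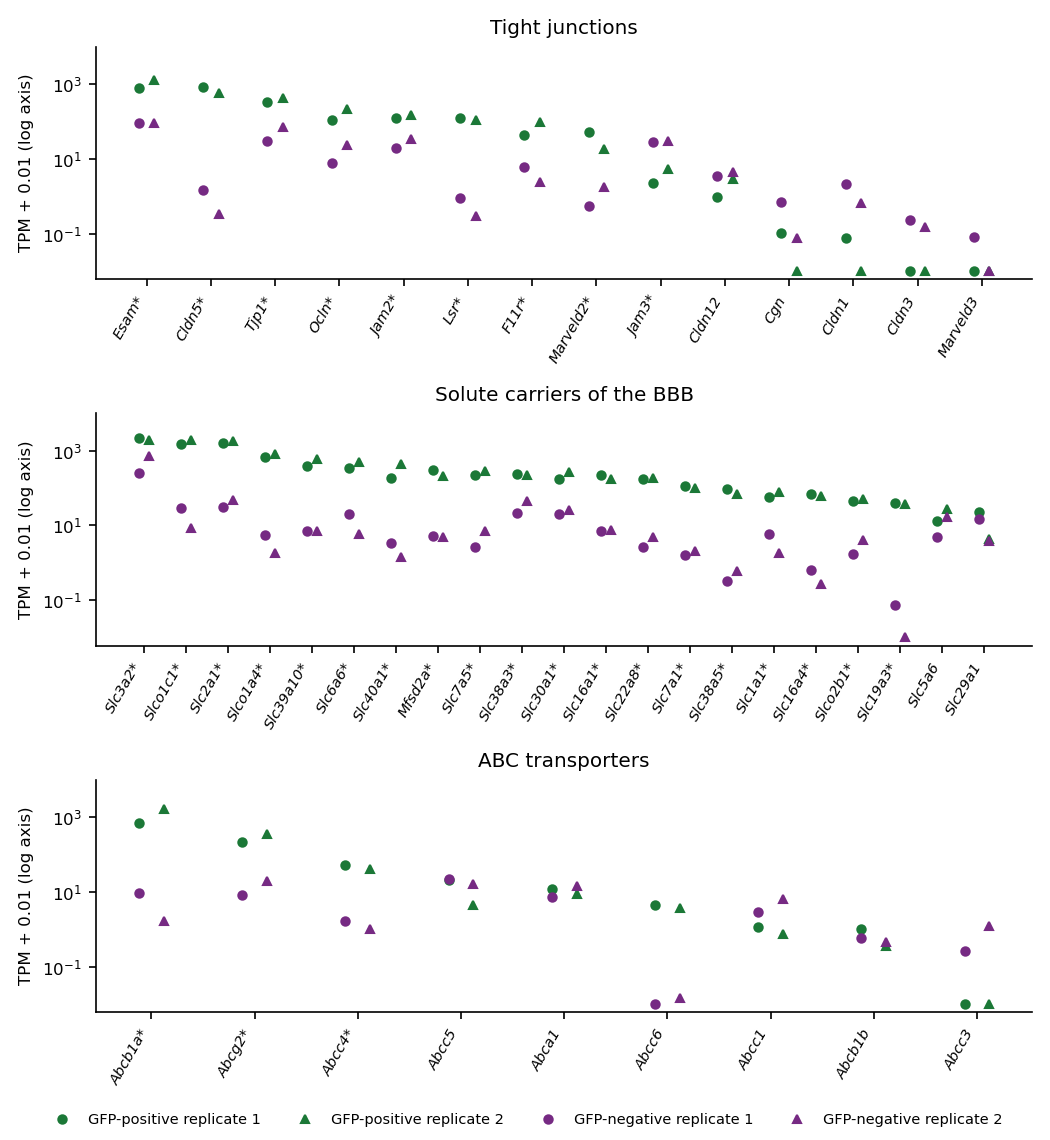
TPM + 0.01 (log axis) of most tight junction genes, BBB solute carriers and ABC transporters in each library, GFP-positive in green and GFP-negative in purple, replicate 1 as circles and replicate 2 as triangles, with an asterisk on genes called in either direction. The carriers form a nearly unbroken row of green points above purple ones, while the ABC transporters divide into 3 that were called and 6 that were not.

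A smaller share of the listed ABC transporters than of the listed carriers was called higher. The carriers had been chosen for known transport across the BBB and the ABC transporters had not, so the shares are not a comparison of the families. Of 9 ABC transporters tested, 3 were called higher and none was called lower, either by edgeR or by DESeq2, with 1 at an unadjusted p under 0.05 in that direction (Abcc3). Abcb1a, which encodes P-glycoprotein, was at 688 and 1689 TPM against 9.23 and 1.69 TPM (8.38 ± 0.58, edgeR adjusted p = 0.00163). Its paralog Abcb1b was at 0.978 and 0.334 TPM against 0.575 and 0.444 TPM, so nearly all P-glycoprotein transcript of these cells was assigned to Abcb1a, with the reservation that the paralogs share sequence. Abcg2 (BCRP) was at 212 and 350 TPM against 8.14 and 18.9 TPM (5.23 ± 0.34), and Abcc4 (MRP4) at 53.2 and 40.5 TPM against 1.61 and 0.983 TPM (5.33 ± 0.44). Abcc6 was at 4.56 and 3.67 TPM against 0 and 0.00404 TPM, a difference with an edgeR adjusted p of 0.00264 that missed the call because its level was below 5 TPM. Abcc1, Abcc5 and Abca1 had values that reached 1.16, 20.5 and 11.8 TPM in ECs and did not pass the test.

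Among receptors and vesicle components, Lrp1 stood against the rest. Of 13 genes for receptor-mediated transport, caveolae and fenestrae, 7 were called higher and 1 was called lower. Tfrc, the transferrin receptor, was at 192 and 142 TPM against 31.3 and 11 TPM (3.24 ± 0.45), and Igf1r and Insr, the receptors of IGF-1 and insulin, were at 147 and 134 TPM against 9.21 and 10.2 TPM and at 27.5 and 30.6 TPM against 5.55 and 7.22 TPM. Lrp1, a lipoprotein receptor that also binds amyloid-beta, was at 18.7 and 27.1 TPM against 197 and 290 TPM (−3.86 ± 0.36). Cav1, Cav2 and Cavin2 were called higher, whereas Cavin1 was at 198 and 94.5 TPM against 140 and 177 TPM and Cavin3 at 23.9 and 19.8 TPM against 14.3 and 36.9 TPM. Plvap, the component of fenestral diaphragms that mature BBB vessels lack, was at 9.04 and 1.75 TPM in ECs and did not pass the test (3.33 ± 1.07, edgeR adjusted p = 0.0619).

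Of 24 Wnt signaling genes, 16 were called higher in ECs and none was called lower. All 7 receptors and co-receptors were called higher in ECs, and of 5 ligands 1 was called higher and none lower, while without GFP-negative replicate 1 Wnt3 and Ndp were called lower. Fzd4, the receptor of Norrin, was at 19.6 and 22.9 TPM against 5.63 and 6.08 TPM (2.21 ± 0.34), and Fzd6 was the most abundant Frizzled of the list at 120 and 76.4 TPM against 1.58 and 4.23 TPM (5.08 ± 0.47). Adgra2 (GPR124) and Reck, which make the receptor selective for WNT7, were at 19.4 and 24.8 TPM against 5.16 and 5.67 TPM and at 10.7 and 15.2 TPM against 2.76 and 2.5 TPM. Tspan12, the co-receptor of Norrin signaling, overlapped between the groups by TPM at 114 and 57.1 TPM against 37.3 and 60.6 TPM and passed the test by a small margin (1.33 ± 0.38, edgeR adjusted p = 0.0445). It lost the call in every fit that left out a library other than GFP-positive replicate 2 (edgeR adjusted p = 0.248 and 0.149 without GFP-negative replicates 1 and 2, and 0.173 without GFP-positive replicate 1), and Reck lost it without GFP-negative replicate 2 (0.0569). The ligands Wnt7a, Wnt7b and Ndp (Norrin) ranged from 1.06 to 8.7 TPM in the GFP-negative libraries and from 0 to 0.172 TPM in ECs, with edgeR adjusted p values of 0.0238, 0.00428 and 0.0172, and were not called because they did not reach 5 TPM in both libraries. By the adjusted p alone, 19.7% of all tested genes were lower and 9.93% were higher. All 4 ligands other than Wnt5a had an unadjusted p under 0.05, and DESeq2 called none of them lower either. Wnt3 had no counts in ECs and 2.67 and 5.24 TPM in the GFP-negative libraries, at least 909-fold more. Wnt5a was the exception, at 25.3 and 7.85 TPM in ECs against 1.5 and 2.73 TPM (3 ± 0.58), though not in the fit of all 14 libraries (edgeR adjusted p = 0.0832).

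Of 5 effectors 3 were called higher, and of 7 targets or feedback genes 5 were called higher. Ctnnb1, beta-catenin, was at 881 and 952 TPM against 124 and 151 TPM (3.19 ± 0.38). The transcription factors Lef1 and Tcf7 were called higher, while their relatives Tcf7l1 at 2.54 and 3.72 TPM against 5.1 and 8.47 TPM and Tcf7l2 at 30.8 and 5.5 TPM against 12.6 and 15.4 TPM did not pass. Lef1 was at 47.4 and 205 TPM in the EC libraries while its estimated counts were 29048 and 24487, so the libraries were apart in TPM, which depends on transcript length, and not in counts. Nkd1 and Znrf3, which are feedback inhibitors, did not pass the test (edgeR adjusted p = 0.0625 and 0.363).

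Growth factor systems were in several cases split, with the ligand in one fraction and the receptor in the other. Of 27 ligands tested, 10 were called higher and 7 lower, and of 28 receptors, 16 were called higher and 6 lower. In the VEGF family all 5 receptors were called higher and 3 of 4 ligands were called lower. Vegfa was at 0.00896 and 0.461 TPM in ECs against 10.5 and 35.2 TPM (−5.33 ± 1.5, edgeR adjusted p = 0.0417), a call that was lost without GFP-negative replicate 2 (0.0752). Flt1 and Kdr, its receptors, were at 1175 and 1134 TPM against 2.3 and 2.54 TPM (8.18 ± 0.49) and at 176 and 172 TPM against 4.07 and 0.921 TPM (6.39 ± 0.97). In the angiopoietin system, the Tie receptor genes Tek and Tie1 were called higher. The difference of Tek, given above, was built in by the sort, and Tie1 was at 20.7 and 27.1 TPM against 0.0868 and 0.162 TPM. The agonist Angpt1 was called lower (0.591 and 1.05 TPM against 6.67 and 10.2 TPM, −2.93 ± 0.46), while Angpt2 overlapped between the groups at 24.1 and 12.6 TPM against 19.2 and 24.2 TPM. The call of Angpt1 was lost in the fit of all 14 libraries (edgeR adjusted p = 0.0996).

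In other systems the ligand was the gene called higher in ECs. Pdgfb, the signal by which ECs recruit pericytes, was at 94.9 and 53.2 TPM against 1.37 and 3.46 TPM (5.36 ± 0.43), while its receptor Pdgfrb, a pericyte gene, was at 11.2 and 13.6 TPM against 17.4 and 31.5 TPM and did not pass. The endothelins Edn1 and Edn3 were called higher in ECs, at 20.4 and 48.8 TPM against 0.208 and 0.176 TPM and at 18.6 and 26.5 TPM against 1.17 and 1.57 TPM. Their receptors were called lower, with Ednra, the receptor of smooth muscle, at 1.64 and 2.43 TPM against 11.5 and 17.2 TPM (−2.45 ± 0.37) and Ednrb at 0.823 and 2.39 TPM against 59.8 and 213 TPM (−6.56 ± 0.55). Gas6 and its receptor Axl were split in the same way, at 34 and 55.1 TPM against 11.2 and 8.42 TPM (1.97 ± 0.41) and at 3.79 and 6.87 TPM against 54.4 and 102 TPM (−2.97 ± 0.39), and Gas6 lost its call without GFP-negative replicate 2 (edgeR adjusted p = 0.0871). Cxcl12, a chemokine, was the most abundant ligand of the list in ECs, at 409 and 611 TPM against 19.3 and 14.3 TPM (6.54 ± 0.51).

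Among the Notch receptors and among the TGF-beta and BMP ligands, members of the same role were called in opposite directions. Notch1 and Notch4 were called higher and Notch2 and Notch3 were called lower, of which Notch1 lost its call without GFP-negative replicate 1 (edgeR adjusted p = 0.0771) and Notch2 and Notch3 lost theirs in the fit of all 14 libraries (0.0764 and 0.0767). Notch4, an endothelial member, was at 23.7 and 44.3 TPM against 0.228 and 0.658 TPM (6.45 ± 0.56), and Notch2 at 1.17 and 1.51 TPM against 11 TPM in each GFP-negative library (−2.41 ± 0.36). Among the ligands of Notch, Dll4 and Jag2 were called higher and Jag1 overlapped at 16.7 and 19 TPM against 14.6 and 22 TPM. Tgfb1 and Tgfb2 were called higher (2.35 ± 0.42 and 2.17 ± 0.35), although Tgfb1 lost its call without either GFP-negative library (edgeR adjusted p = 0.0538 and 0.0593). Tgfb3, at 2.44 and 1.1 TPM against 29.3 and 43.3 TPM (−3.77 ± 0.65), and Bmp6 (−3.73 ± 0.73) were called lower. Of 5 receptors of this family 4 were called higher, led by Acvrl1 (ALK1) at 184 and 157 TPM against 1.69 and 3.19 TPM (6.06 ± 0.49) and Eng (endoglin) at 272 and 271 TPM against 2.11 and 5.39 TPM (5.84 ± 0.44).

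**Figure D4:**
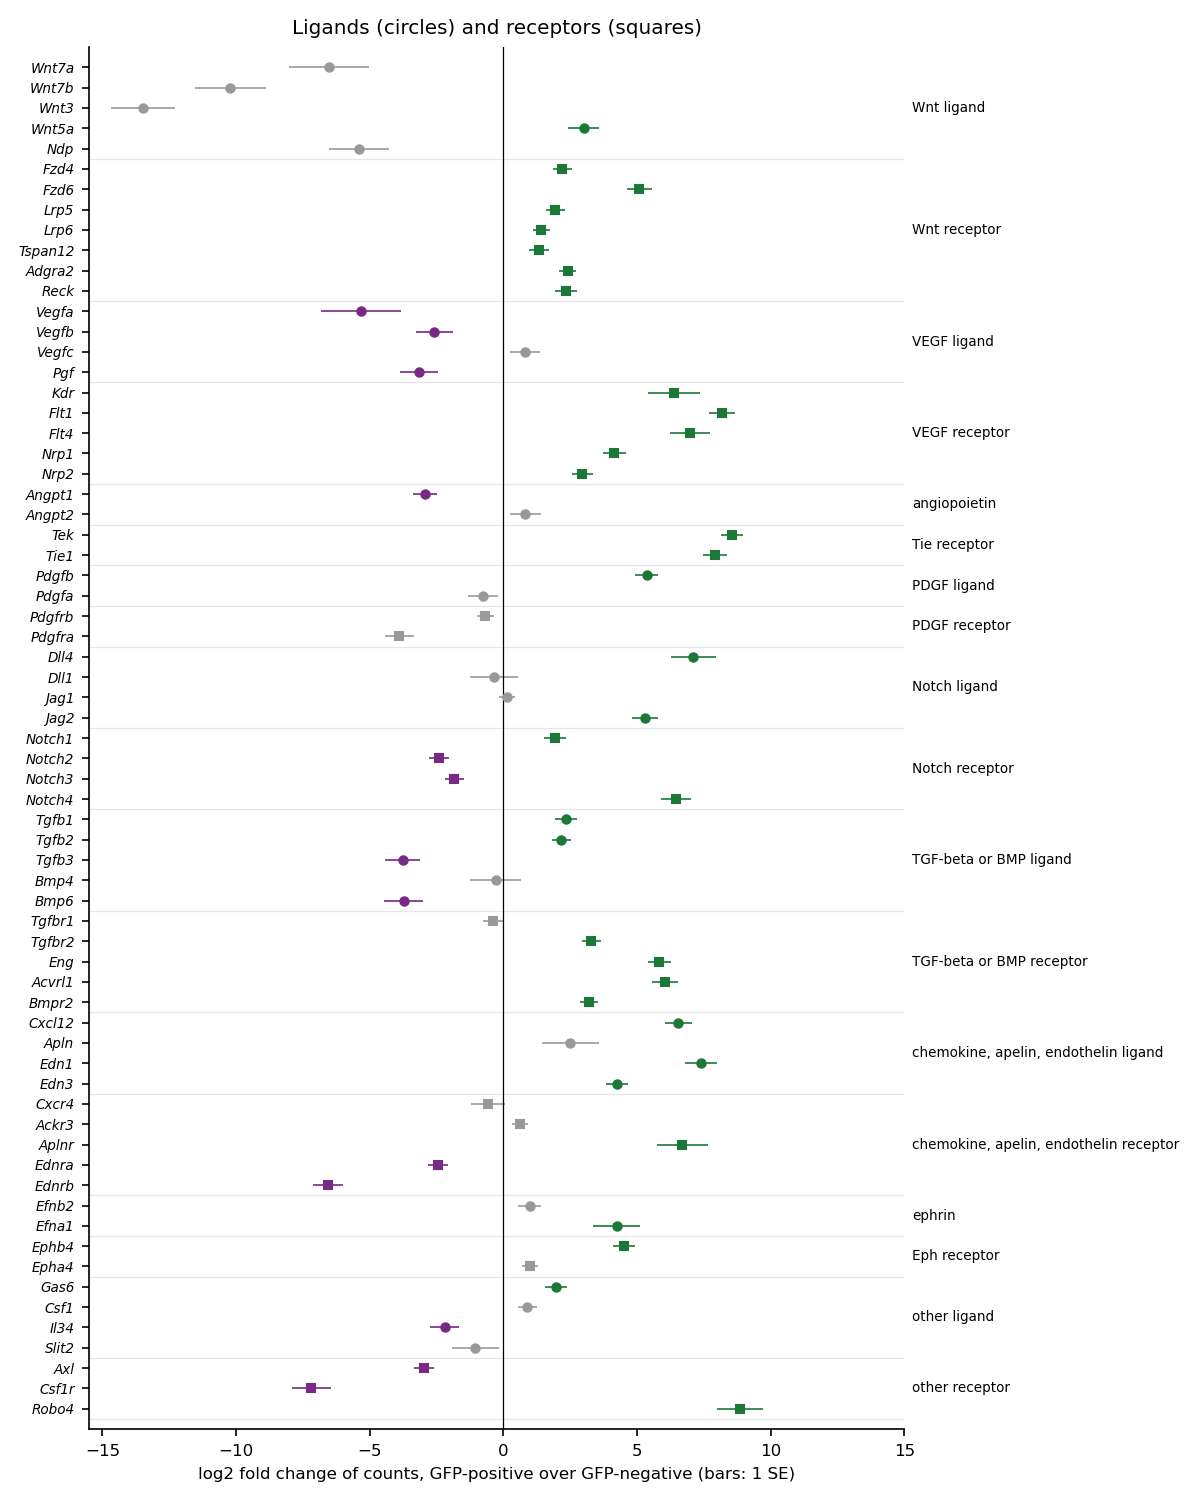
Log2 fold change of counts (GFP-positive over GFP-negative, bars 1 SE) for Wnt and vascular ligands (circles) and receptors (squares), in green where called higher, in purple where called lower and in grey where not called. The 7 Wnt receptors and 5 VEGF receptors all lie right of 0, Vegfa, Angpt1 and the endothelin receptors lie left of it, and the values of Wnt3 and other genes near 0 counts depend on the prior count of the fit.

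Of 23 endothelial transcription factors tested, 20 were called higher and none lower by edgeR (DESeq2 called 1 lower, Nr2f2), with a median log2 fold change of 4.45. All 5 ETS factors and all 3 SoxF factors were called higher. Erg, which maintains EC identity, was at 99.1 and 147 TPM against 1.1 and 0.88 TPM (6.86 ± 0.47), and Sox17 at 90.5 and 49.9 TPM against 0.182 and 0.0986 TPM (8.78 ± 0.55). Forkhead factors of CNS vessels were also called higher, with Foxq1 at 20.3 and 31.7 TPM against 0.127 and 0.0421 TPM (8.57 ± 0.8) and Foxf2 at 28.4 and 44.5 TPM against 1.34 and 3.3 TPM (4.45 ± 0.52). Zic1, on the list of neural factors, was called lower (3.91 and 3.36 TPM against 29.2 and 52.1 TPM, −3.13 ± 0.34). Nr2f2 (COUP-TFII), known as a venous factor, was at 3.74 and 9.54 TPM in ECs against 14.9 and 24.1 TPM and did not pass (−1.09 ± 0.34, edgeR adjusted p = 0.058). Of 10 neural and microglial factors, 5 were called lower and none higher, and Nfia, a glial factor, did not pass (58.2 and 76.8 TPM against 80.8 and 136 TPM).

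Markers of all vessel segments were found in the sorted ECs. All 6 capillary markers, 4 of 8 arterial markers and 5 of 8 venous markers were called higher. No member was called lower by edgeR, but Nr2f2, on the venous list, had an unadjusted p under 0.05 in that direction and was called lower by DESeq2. The summed TPM in the 2 EC libraries was 2346 and 2436 for the capillary list, 165 and 156 for the arterial list and 308 and 180 for the venous list. Car4, a carbonic anhydrase of capillaries, was at 1116 and 1235 TPM against 12.7 and 35.7 TPM (5.57 ± 0.41). Sema3g, an arterial semaphorin, was at 18.9 and 24 TPM against 0.103 and 0.255 TPM (7.37 ± 0.54). Ackr1, a chemokine-binding protein of venules, was at 66.6 and 3.2 TPM in the EC libraries and did not pass the test despite a log2 fold change of 5.57 ± 1.68 (edgeR adjusted p = 0.0507). Gja4, a connexin on the arterial list, overlapped between the groups at 31.4 and 11.5 TPM against 15.2 and 22.5 TPM.

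On the outer side of ECs, the basement membrane list had 6 of 15 members called higher and 1 called lower, and 11 called higher without GFP-positive replicate 2. Fn1, fibronectin, was at 1260 and 1277 TPM against 39.7 and 51.5 TPM (4.56 ± 0.46), and Col4a1, a chain of collagen IV, at 807 and 711 TPM against 269 and 199 TPM (2.2 ± 0.45). The laminin alpha chains were divided, with Lama4 called higher (25 and 29.5 TPM against 5.9 and 10.5 TPM, 2.11 ± 0.4) and Lama2 called lower (4.21 and 2.72 TPM against 19.1 and 30.4 TPM, −2.21 ± 0.37), while the shared chains Lamb2 and Lamc1 overlapped between the groups. Lama4 lost its call without GFP-negative replicate 1 (edgeR adjusted p = 0.0567), and Lama2 and Col4a1 lost theirs in the fit of all 14 libraries (0.14 and 0.0589). On the luminal side, 5 of 7 tested adhesion and glycocalyx genes were called higher. The sialomucins Podxl, Cd34 and Emcn ranged from 101 to 444 TPM in ECs and from 0.357 to 6.64 TPM in GFP-negative cells. Icam2 was called higher (7.75 ± 0.68) and Vcam1 was at 26.5 and 30.6 TPM against 7.42 and 16.7 TPM (edgeR adjusted p = 0.0518).

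Over the list of 11 coagulation and tone genes, 6 were called higher and 2 lower. Vwf, von Willebrand factor, which promotes clotting, was called higher (6.69 ± 0.54). Thrombomodulin (Thbd), at 44 and 49.5 TPM against 6.15 and 4.52 TPM (3.5 ± 0.43), and the protein C receptor Procr (3.41 ± 0.62), both of which oppose clotting, were called higher. F3, tissue factor, which starts clotting, was at 0.135 and 0 TPM in ECs against 22.7 and 51.6 TPM (−8.39 ± 1.49, edgeR adjusted p = 0.0107). Nos3, the endothelial nitric oxide synthase, was at 44.2 and 42.4 TPM against 0.0861 and 0.256 TPM (8.33 ± 0.63), and Ptgis, the prostacyclin synthase, was called lower (1.08 and 2.44 TPM against 9.55 and 16.3 TPM, −2.71 ± 0.6). Procr lost its call without GFP-negative replicate 2 (edgeR adjusted p = 0.0614), and Ptgis without either GFP-negative library (0.0636 and 0.0647).

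Antigen presentation and interferon genes were for the most part higher in ECs. Of 18 genes 12 were called higher and none lower. B2m, the shared chain of MHC class I, was at 415 and 757 TPM against 70.5 and 164 TPM (2.37 ± 0.35), and H2-D1 and H2-K1 were called higher at 2.16 ± 0.33 and 2.36 ± 0.39, with the reservation that these paralogs share sequence. Ifit1, an interferon-induced gene, was at 17.9 and 23 TPM against 0.311 and 0.26 TPM (6.14 ± 0.66), and Ly6e was at 4.74 ± 0.49 on the log2 scale.

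Among genes of energy metabolism, single isoforms stood out. Of 16 glycolysis genes, none was called higher and 5 were called lower, which were Aldoc, Pgk1, Eno1, Eno2 and Ldhb. By edgeR the count called lower was 8 without GFP-positive replicate 1 and 3 without GFP-negative replicate 2, where Pgk1 and Eno1 lost their calls (edgeR adjusted p = 0.2 and 0.0518). They also lost them without GFP-negative replicate 1 (0.15 and 0.0956), and 2 genes were called higher without GFP-positive replicate 2. Ldhb, the lactate dehydrogenase subunit of oxidative tissue, was at 1.58 and 3.41 TPM in ECs against 165 and 231 TPM (−5.56 ± 0.42, edgeR adjusted p = 0.00163). Ldha, the other subunit, was at 184 and 212 TPM against 90 and 157 TPM (1.14 ± 0.38, edgeR adjusted p = 0.0712, with an unadjusted p under 0.05), so the lactate dehydrogenase transcript of ECs was almost entirely Ldha. Neither hexokinase was called, with Hk1 at 68.8 and 42.3 TPM against 35.4 and 23.9 TPM (edgeR adjusted p = 0.251) and Hk2 at 0.00665 and 0.449 TPM against 3.24 and 7.93 TPM (edgeR adjusted p = 0.00269, below the TPM minimum). Aldoc and Eno2 are the brain isoforms of aldolase and enolase. Gapdh values are uncertain because the gene has many processed copies. Of 13 genes of the mitochondrial genome none was called by edgeR or DESeq2, and none had an unadjusted p under 0.05 (edgeR adjusted p from 0.139 to 0.759; 1 was called higher without GFP-negative replicate 2), although the share of counts they took was lower in ECs, and mt-Atp6, which overlaps mt-Atp8, was listed at 0 TPM in 1 GFP-negative library. Of 14 cholesterol synthesis genes, 3 were called lower (Fdft1, Sqle and Msmo1), where 7.56% of all tested genes were called lower. The log2 fold change was below 0 for 13 of the 14, with a median of −1.12. All tested genes had a median of −0.06 and a lower quartile of −2.1, so the list median lay within the middle range of all genes. Without GFP-negative replicate 1 none of them was called, with edgeR adjusted p values of 0.141, 0.071 and 0.0734 for these 3, and 5 genes were called without GFP-positive replicate 1. Of 11 metabolic and surface enzymes, 5 were called higher (Fmo1, Fmo2, Ephx1, Car4 and Alpl) and 3 without GFP-negative replicate 2. Fmo2, a flavin monooxygenase, was at 45.6 and 161 TPM against 0.136 and 0.074 TPM (6.5 ± 0.78).

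Immediate early genes, which tissue dissociation is known to induce, separated the EC libraries from each other. Of 14 genes, 7 were called higher and none lower. Fos was at 13.4 TPM in GFP-positive replicate 1 and at 196 TPM in replicate 2, against 90.5 and 166 TPM in the GFP-negative libraries (−0.03 ± 0.86, edgeR adjusted p = 0.983). The list summed to 329 and 1171 TPM in ECs against 260 and 478 TPM. The called members Jun, Nr4a1, Klf6, Ier2, Ier3, Dusp1 and Btg2 include Ier2 with nearly equal EC values (33.2 and 32.3 TPM against 5.05 and 6.2 TPM, 2.87 ± 0.41), while Jun was at 35.5 and 159 TPM against 21.5 and 41 TPM (2.04 ± 0.61, edgeR adjusted p = 0.0499). The count rested on single libraries, since 10 were called higher without GFP-positive replicate 1, 5 without GFP-positive replicate 2, 4 without GFP-negative replicate 2 and 1 without GFP-negative replicate 1 (2 were called lower without GFP-positive replicate 2), and Jun itself was at an edgeR adjusted p of 0.13, 0.0807 and 0.156 in the last 3 fits.

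Accessible chromatin of acutely isolated ECs, measured in separate ATAC-seq libraries, was set beside the calls. A peak was counted for a gene when both libraries had one within 1000 bases of a protein-coding transcript start. Of the genes called higher, 96.1% had such a peak (95% exact binomial interval, 94.9 to 97.1, counting error only), and of the genes called lower 48.6% (45.7 to 51.5). Uncalled genes with at least 5 TPM in both EC libraries reached 97.6%, and uncalled genes below that level 62.1%. The number of peaks near the gene differed more. Genes called higher had a median of 5 peaks shared by both libraries within 50 kb of a start, and 53.6% had at least 5 (50.7 to 56.3), whereas uncalled genes expressed in ECs had a median of 3 and 28.7% had at least 5 (27.4 to 30.1), with a median of 2 annotated starts per gene in both sets. Mecom, an EC transcription factor gene, had 15 such peaks, Egfl7 13, Pecam1 11, Slc2a1 10 and Cldn5 8. Genes called lower had a median of 2. Neighbouring genes share peaks, so the genes are not independent, and the 50 kb window was chosen after the data were seen. The sets were not matched for transcript abundance, and its part in these differences was not tested.

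**Figure D5:**
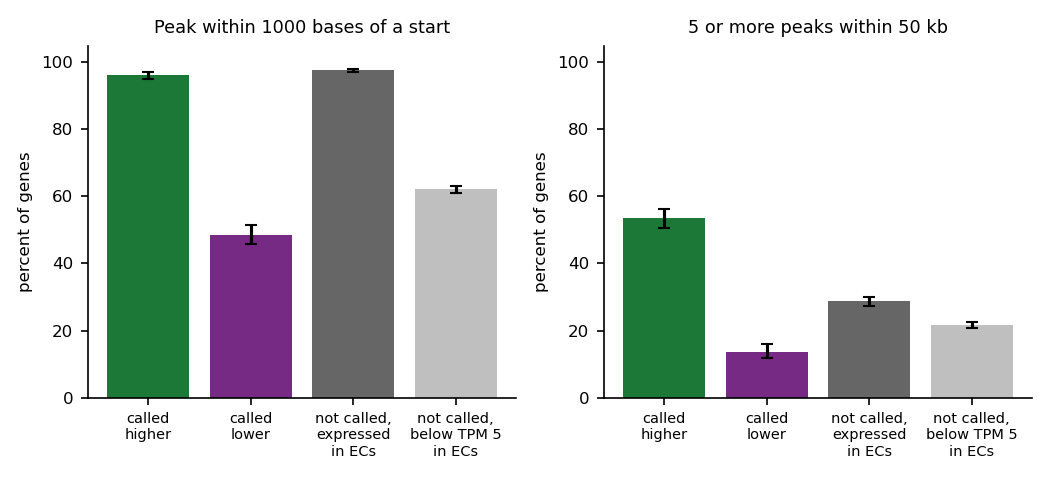
Percent of genes (bars with 95% exact binomial intervals) with an EC ATAC-seq peak of both libraries within 1000 bases of a start (left) and with 5 or more shared peaks within 50 kb (right), for genes called higher, called lower, not called but at 5 TPM or more in both EC libraries, and not called below that level. Genes called higher and uncalled genes at 5 TPM or more are close on the left (96.1% and 97.6%) and apart on the right (53.6% and 28.7%).

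Among the list and top-ranked genes called higher, 10 had no promoter peak shared by both libraries. Fbln5 had 1 shared peak within 50 kb, Edn3, Slc38a5, Wnt5a and Ccl21a had 3, Foxq1 and Isg15 had 4, Tbx1 and Grrp1 had 6 and Unc45b had 8. The proximal promoters themselves differed little in the motifs shown above. The ERG motif was found in 3.63% of the promoters of genes called higher, over 300 bases each, against 3.17% of those of all tested genes and 3.58% of all promoters in the table, the SOX motif in 2.68% against 2.15%, the TCF/LEF motif in 2.61% against 2.69% and the KLF motif in 3.63% against 3.61%. Promoters were matched for 999 of the 1253 genes. The median ratio of observed to expected CpG was 0.71 for genes called higher, 0.594 for genes called lower and 0.816 for uncalled genes expressed in ECs.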

How the data were processed

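RNA-seq files held 4 libraries of sorted cells, single-end for 75 cycles after amplification of total RNA. Per the study's methods, the authors quantified reads with Salmon 0.14.0 on GENCODE M21 transcripts, with cerebrum and cerebellum data combined. The deposited files hold an estimated count and a TPM value for each of 140198 transcripts. A single short noncoding symbol, Mir6236, held 24.8% to 33.8% of TPM and protein-coding genes held 41.8% to 51.3%, which sets the scale of every TPM value. In the ATAC-seq lists the authors deposited peaks of each library with a score, a signal column of fold enrichment and −log10 p and q values (HISAT2 2.1.0, MACS2 2.1.2, GRCm38), of which peaks over 2-fold and −log10 q over 2 were used.

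Counts and TPM were summed per gene symbol over 54288 symbols, and 21820 protein-coding symbols were kept. Rounded counts of 15102 genes passing filterByExpr were tested with edgeR 4.0.16 (TMM, quasi-likelihood F test, two-sided, Benjamini-Hochberg over all genes), and SE was derived from the fold change and the F statistic. Called genes had an adjusted p under 0.05, over 2-fold and at least 5 TPM in both libraries of the higher group. An exact permutation test of 2 against 2 libraries cannot go below p = 0.333. On simulated data with the dispersion of each gene, 13% of 4-fold and 62% of 16-fold changes were recovered. In that simulation 100 of 15102 genes were changed at each size, and no TPM minimum was applied. In the data 9.93% of tested genes were higher and 19.7% lower by adjusted p alone. The recovered shares are therefore not the power of this comparison. DESeq2 1.42.0, other scalings, filters, designs and the omission of each library were tried. Named genes were members of the gene lists, the 10 largest fold changes and the 10 most abundant called genes in each direction. Members and lists were chosen with earlier results of these data known. Some list members count in the totals but are not reported here by name.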

Additional observations from a re-analysis of the deposited data

How the results depend on the processing

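The comparison had 2 libraries per group. In simulated data of the same depth, recovery of changes of 2 on the log2 scale was 13% with the dispersion of each gene. It was 95% with a dispersion of 0.05. Depth itself was not varied. The simulation changed a far smaller share of genes than passed by adjusted p in the data and applied no TPM minimum, so its recovery is not the power of this comparison. The count of genes called higher (1253) ranged from 622 to 1750 and the count called lower (1142) from 1087 to 1177 when 1 library was left out, where a group left with 1 library was assumed to vary like the other. Called higher were 663 genes with an offset for transcript length, and called lower were 2978 genes with no TPM minimum. The other alternatives gave 930 to 1498 called higher and 889 to 1420 called lower, and DESeq2 kept 1245 of the former and 1141 of the latter. Scaling by library size alone moved the median over all tested genes from −0.06 to −0.44 (log2) and changed the split to 930 higher against 1420 lower. With the replicate number as a block, 1017 genes were called higher and 1053 lower, and 4 erythroid genes were called higher. Over the tested genes, the difference between replicates 1 and 2 was nearly uncorrelated between the groups (r = 0.0643), although hemoglobin was higher in replicate 2 of each. Whether libraries with the same number came from the same mice was not given in the sources used here. All 146 named genes that were called kept their direction in these alternatives, and between 125 and 146 of them kept the call (145 were tested without mitochondrial and hemoglobin genes). With the length offset, 132 of these 146 genes kept the call and 14 lost it, Gja1 among them. Genes that were not called changed sign as follows. By library size alone the log2 fold changes were −0.02 for Rgs5, −0.06 for Abca1, −0.11 for Cavin1, −0.31 for Tcf7l2, −0.26 for Jag1 and −0.08 for Gja4. With the length offset they were 0.68 for Abcb1b and 0.12 for Cavin3. When 1 library was left out they ranged from −1.03 to 0.02 for Cldn12, from −0.24 to 2.24 for Slc29a1, from −0.41 to 0.85 for Abca1, from −0.14 to 0.57 for Cavin1, from −0.65 to 0.28 for Cavin3, from −0.75 to 0.64 for Tcf7l2, from −0.32 to 1.4 for Angpt2, from −0.11 to 0.24 for Jag1, from −1.13 to 1.09 for Gja4, from −0.13 to 1.37 for Hk1, from −2.41 to 0.24 for Gapdh, from −0.88 to 0.51 for mt-Atp8 and from −2.3 to 0.69 for Fos. The share of genes called higher with a promoter peak was 93.7% at stricter peak thresholds. For genes called lower it was 45.4% within 250 bases, 41.6% at stricter thresholds and 56.2% with a peak in either library. For uncalled genes expressed in ECs it was 96.5% and 98.2% in the latter settings. The cause of these shifts was not tested beyond what each setting changes.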
